A study of Homo sapiens with 6 samples.

Results

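The 24 genes described here are the Wnt ligands, Frizzled receptors and secreted antagonists that have a row of their own in a table of 26906 rows, measured in BE-(2)-C cells after siRNA against ELF4 or control siRNA. The rule reads only names, although the families were picked with earlier results of these data known. It takes rows whose symbol is WNT, FZD, SFRP or DKK with a number, leaving out rows that join several names or contain a hyphen. They comprise 12 WNT genes, 8 FZD genes, SFRP1 and 3 DKK genes, and 21 of them had a mean value of at least 10 over the 6 libraries. The other 13 family symbols in RefSeq, among them WNT5A and SFRP2, have no row of their own. They are therefore not analysed here, apart from a joined row that contains FZD8. BE-(2)-C is a clonal human neuroblastoma line with an amplified MYCN gene. Both groups were grown in the same serum-containing medium without any further treatment in the labels. ELF4, an ETS family transcription factor, was the target of one siRNA group, and the other received siControl. RNA was taken after 48 hours, with 3 polyA-selected libraries per group. The siRNA sequences and the number of siRNAs used are not given in the labels, and all cells come from 1 line.

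Wnt proteins are lipid-modified ligands that bind the extracellular cysteine-rich domain of Frizzled receptors. Together with the coreceptors LRP5 and LRP6, this stabilises beta-catenin, which acts in the nucleus with TCF and LEF factors. Other Wnt and Frizzled pairs signal without beta-catenin to planar cell polarity, cell movement and axon guidance. SFRP proteins carry a Frizzled-like domain and bind Wnts outside the cell, whereas DKK1 binds LRP5 and LRP6 and blocks the coreceptor. In the neural crest, from which the sympathetic lineage of neuroblastoma derives, Wnt signals act early in induction and in the choice of fate.

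Libraries held 23148635 to 38097986 recovered reads, and values are normalised read counts, that is reads divided by a size factor per library. ELF4 had 5.51, 5.61 and 3.10 after ELF4 siRNA, against 42.4, 38.8 and 46.8 after control siRNA (log2 fold change -2.96, limma adjusted p = 5.38e-07), and it entered the test only through the control libraries. Across 20339 tested genes, 20.7% rose and 24.4% fell, together 45.1%, at a Benjamini-Hochberg adjusted p under 0.05 in limma. All 8 adrenergic neuroblastoma markers were present, the lowest value being 376 for TH, with sums of 209377 to 230373 after ELF4 siRNA and 186271 to 198513 after control siRNA (2 rose, 2 fell). Of 5 fibroblast markers, COL1A1, DCN and LUM rose, with summed values of 2705 to 3012 after ELF4 siRNA and 1782 to 1831 after control siRNA, while COL1A2 stayed between 0 and 4.57. Sums were 2014 to 2057 after ELF4 siRNA and 2209 to 2294 after control siRNA for 4 of 5 mesenchymal state markers (1 rose, 2 fell). Epithelial markers, 5 of 5 with a row, summed to 152 to 181 after ELF4 siRNA and 139 to 162 after control siRNA, with KRT18 under 10 throughout. For 3 of 5 blood and endothelial markers, sums were 34.1 to 48.3 after ELF4 siRNA and 51.4 to 63.1 after control siRNA, with CDH5 under 10 throughout. In each of these last 2 lists 1 marker rose and 1 fell. Of glial markers, S100B rose (log2 fold change 0.51, adjusted p = 0.00323) and GFAP fell (-0.47, adjusted p = 0.00928), and SOX10 stayed under 10. The part of these marker changes in the other results was not tested.

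Of the 21 tested genes, 3 rose (WNT6, FZD5 and DKK1) and 8 fell (WNT3, WNT5B, WNT7B, FZD1, FZD2, FZD3, FZD7 and SFRP1) after ELF4 siRNA. These 11 genes are 52.4% of those tested, against 45.1% of all tested genes, so the share called lies near the background. Groups were fully separated for 12 of the 21 genes (57.1%), against 53.6% of all tested genes. A log2 fold change of 0.5 or more in either direction was seen in 11 of the 21 (52.4%), against 17.1% of all tested genes. Of these 11, 9 were called and WNT4 and WNT10A were not, against 3036 called of 3474 such rows among all tested genes. The 11 include 6 ligands, a family whose tested genes had 7 to 134 reads per library. The 17.1% is not matched on level, and the part of low read numbers in this difference was not tested. The median log2 fold change was 0.01 for the 21 genes and -0.00 for all tested genes. In bulk RNA, fewer cells of a type and less RNA per cell cannot be told apart.

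**Figure D1:**
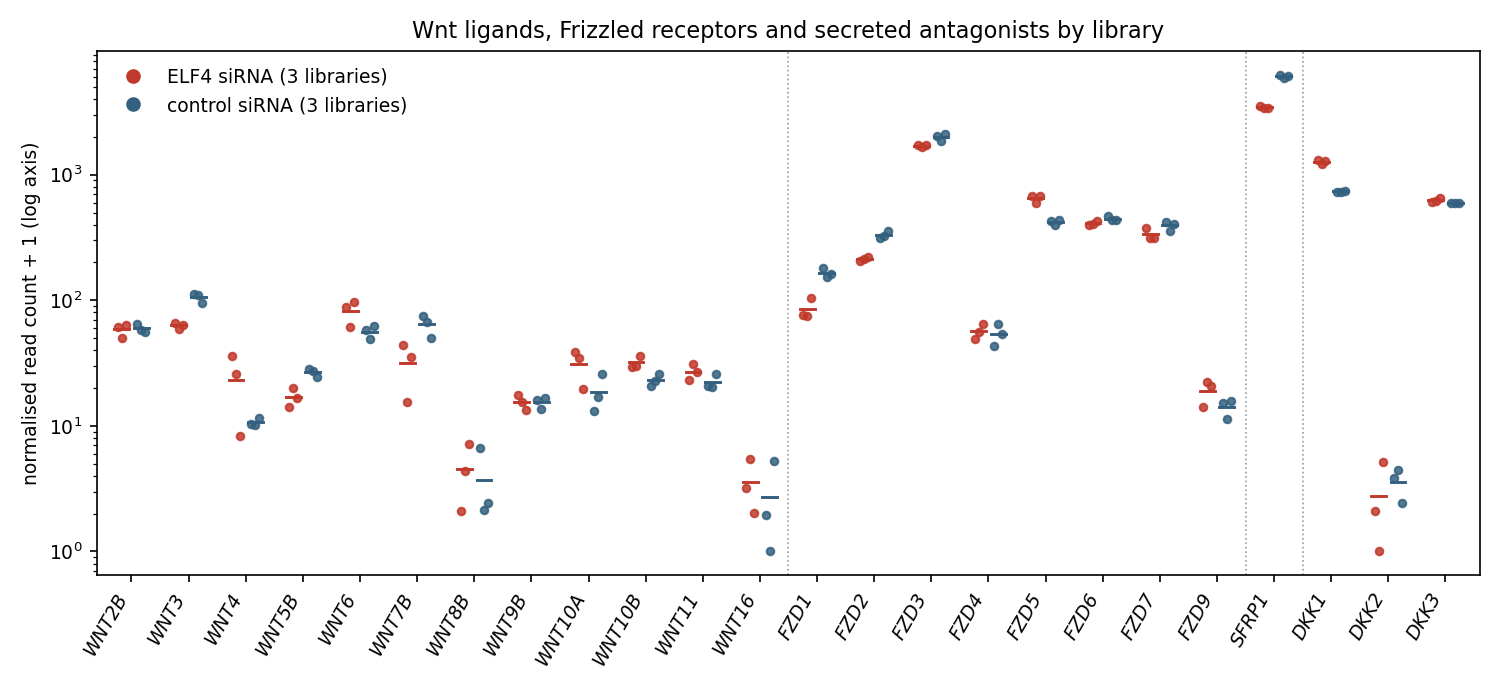
Normalised read count plus 1, on a log axis, of the 24 genes in each library. Points are libraries and short lines are means, with ELF4 siRNA left of control siRNA. SFRP1 holds the highest values, 3397 to 3546 after ELF4 siRNA and 5893 to 6270.4 after control siRNA, and DKK1 stands higher in every ELF4 siRNA library.

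SFRP1 fell and DKK1 rose, and these antagonists held the highest levels per kilobase of exon among the 24 genes. SFRP1, which binds Wnt ligands and has been described as both an inhibitor and a modulator of their action, had 3546, 3408 and 3397 after ELF4 siRNA, against 6270.4, 5893 and 6079 after control siRNA. Every ELF4 siRNA library lay far below every control library. SFRP1 fell to 56.7% of its control level (3450.2 ± 83.1 after ELF4 siRNA against 6081 ± 189 after control siRNA, SD, n = 3 each). The log2 fold change was -0.82 (95% interval -0.90 to -0.73, SE 0.04, adjusted p = 4.16e-09).

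DKK1, the antagonist of LRP5 and LRP6 and itself a known target of beta-catenin, had 1303, 1212 and 1286 after ELF4 siRNA, against 727, 733 and 745 after control siRNA. The groups were separated by a wide gap, and the control libraries differed little among themselves. DKK1 rose to 172% of its control level (1267 ± 48.4 after ELF4 siRNA against 735 ± 8.69 after control siRNA, n = 3 each), a log2 fold change of 0.78 (interval 0.68 to 0.89, SE 0.05, adjusted p = 3.73e-08). DKK3, a divergent family member that is not a classical LRP antagonist, had 609, 614 and 653 after ELF4 siRNA, against 593, 592 and 589 after control siRNA. Its values did not overlap either, but the difference was small and did not pass (log2 fold change 0.08, interval -0.04 to 0.20, adjusted p = 0.263). DKK2 was near the limit of detection, with 1.10, 0 and 4.14 after ELF4 siRNA and 2.83, 3.43 and 1.42 after control siRNA, from 0 to 4 reads per library, and was not tested.

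On the scale of normalised read count per kilobase of exon, SFRP1 had 725 ± 17.5 after ELF4 siRNA and 1277 ± 39.6 after control siRNA, while DKK1 had 574 ± 21.9 after ELF4 siRNA and 333 ± 3.94 after control siRNA. In both groups SFRP1 ranked first and DKK1 second among the 24 genes, and neither overlapped its neighbour in that order. Averaged over all libraries, SFRP1 stood above 93.7% and DKK1 above 85.4% of the 17877 rows with an exon length.

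The 250 bases before the RefSeq start (build GRCh38.p14) of 4 genes are shown because, among the called genes with an entry, these have the smallest adjusted p in each direction: DKK1 and FZD5, which rose, and FZD1 and WNT3, which fell. DKK1 lies at chr10:52314031-52314280 on the plus strand, FZD5 at chr2:207769907-207770156 on the minus strand, FZD1 at chr7:91264183-91264432 on the plus strand, and WNT3 at chr17:46818693-46818942 on the minus strand. Capitals mark CCGGAA or its reverse complement TTCCGG, called the ETS motif here, a strict form of the site that ETS factors bind. They also mark CTTTGA or its reverse complement TCAAAG, part of the element that TCF and LEF factors bind. The shorter GGAA core within the ETS motif is not marked where it stands without the other letters.
DKK1: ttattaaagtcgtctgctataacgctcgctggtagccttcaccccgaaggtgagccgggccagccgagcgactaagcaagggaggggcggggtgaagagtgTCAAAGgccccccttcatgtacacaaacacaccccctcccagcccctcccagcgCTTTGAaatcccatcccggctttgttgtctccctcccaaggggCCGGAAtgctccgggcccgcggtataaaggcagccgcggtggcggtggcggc
FZD5: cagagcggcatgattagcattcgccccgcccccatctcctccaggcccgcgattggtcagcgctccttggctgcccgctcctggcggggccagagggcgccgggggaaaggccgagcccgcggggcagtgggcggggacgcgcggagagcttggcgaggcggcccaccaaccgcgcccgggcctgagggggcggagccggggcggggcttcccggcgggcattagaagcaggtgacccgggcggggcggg
FZD1: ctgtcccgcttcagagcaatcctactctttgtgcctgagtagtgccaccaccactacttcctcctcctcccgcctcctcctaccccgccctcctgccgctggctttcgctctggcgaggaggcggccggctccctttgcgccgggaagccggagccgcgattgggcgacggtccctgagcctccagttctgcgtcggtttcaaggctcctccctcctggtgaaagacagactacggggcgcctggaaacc
WNT3: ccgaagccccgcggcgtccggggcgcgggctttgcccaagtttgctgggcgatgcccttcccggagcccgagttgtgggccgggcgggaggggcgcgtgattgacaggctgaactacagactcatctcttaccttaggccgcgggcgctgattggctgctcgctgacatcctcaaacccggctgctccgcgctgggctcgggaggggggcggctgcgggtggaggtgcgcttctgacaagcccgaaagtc

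Of these windows only that of DKK1 holds a match. It carries 1 ETS motif that begins 52 bases before the start. Its 2 TCF/LEF cores begin 149 and 95 bases before the start, and none of the matches overlap. Among the 14 of 24 genes with a window in the table, DKK1 was the only match for each motif. Of all 35116 windows of the same length, 14.5% hold the ETS motif, 11.2% the TCF/LEF core and 1.18% both. A match describes letters and not a bound site, and the absence of these letters in this window says nothing about the factor. The windows held 62.8% G and C for DKK1, 76.8% for FZD5, 65.2% for FZD1 and 68.8% for WNT3, against a median of 58% (all windows).

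The Frizzled receptors moved in both directions. The 8 tested genes comprise 1 that rose, 4 that fell and 3 that missed the threshold (62.5% called, against 45.1% of all tested genes). FZD1, FZD2 and FZD7 form the subfamily closest in sequence to each other and can signal through beta-catenin, though not only through it. FZD1 had 76.0, 74.1 and 103 after ELF4 siRNA, against 179, 153 and 161 after control siRNA. Its highest ELF4 siRNA library lay well below its lowest control library. FZD1 fell to 51.4% of control (84.5 ± 16.5 after ELF4 siRNA against 164 ± 13.3 after control siRNA, n = 3 each), the largest fall among the 8 receptors on the log2 scale (-0.96, interval -1.24 to -0.69, adjusted p = 3.17e-05).

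FZD2, which also serves WNT5A in noncanonical signalling, had 204, 212 and 219 after ELF4 siRNA, against 314, 322 and 356 after control siRNA. The groups were clearly apart, and FZD2 fell to 64.1% of control (log2 fold change -0.64, interval -0.80 to -0.47, adjusted p = 1.15e-05). FZD7 had 378, 314 and 315 after ELF4 siRNA, against 418, 358 and 404 after control siRNA. These ranges overlapped, and the fall was slight (log2 fold change -0.23, interval -0.42 to -0.05, adjusted p = 0.0411). The FZD7 call was lost without ELF4 siRNA replicate 2 or 3 or without control replicate 1 or 3 (adjusted p = 0.109 to 0.161), with quantile normalisation (0.0629), without the trend (0.122) and with DESeq2 (0.0779), and its adjusted p ranged from 0.00929 to 0.161 over all alternatives.

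FZD5, a receptor of the FZD5 and FZD8 subfamily that signals through beta-catenin, had 674, 592 and 676 after ELF4 siRNA, against 429, 396 and 434 after control siRNA. It was the only receptor of the 8 that rose in the test, to 154% of control (647 ± 48.2 after ELF4 siRNA against 420 ± 20.4 after control siRNA, n = 3 each). The log2 fold change was 0.62 (interval 0.47 to 0.77, adjusted p = 5.55e-06). FZD8 has no row of its own, and the row that joins it to MIR4683, singled out after its values were seen, had 27.5, 25.8 and 22.8 after ELF4 siRNA, against 15.1, 12.6 and 12.8 after control siRNA (log2 fold change 0.87, adjusted p = 0.00335). Reads of FZD8 and of the microRNA locus cannot be told apart in that row.

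FZD3 and FZD6 form the subfamily tied to planar cell polarity, and in mice FZD3 is needed for the growth of axon tracts. FZD3 had the most reads of the receptors, with 1731, 1656 and 1709 after ELF4 siRNA, against 2034, 1857 and 2120.2 after control siRNA. The groups did not overlap, and FZD3 fell by a small amount, to 84.7% of control (log2 fold change -0.24, interval -0.35 to -0.12, adjusted p = 0.00201). FZD6 had 398, 404 and 425 after ELF4 siRNA, against 468, 436 and 433 after control siRNA. Its ELF4 siRNA libraries all lay just below the control libraries, but the difference did not pass (log2 fold change -0.12, interval -0.26 to 0.01, adjusted p = 0.13).

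FZD4 and FZD9, of a further subfamily, were low and were not called. FZD4, the receptor of norrin in retinal vessels, had 48.5, 55.0 and 64.2 after ELF4 siRNA, against 42.4, 64.0 and 52.4 after control siRNA, and the groups overlapped (log2 fold change 0.09, interval -0.27 to 0.44). FZD9 had 13.2, 21.3 and 19.7 after ELF4 siRNA, against 14.1, 10.3 and 14.9 after control siRNA. The groups overlapped on 9 to 21 reads per library, and the log2 fold change of 0.43 had an interval of -0.12 to 0.97 (adjusted p = 0.195).

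**Figure D2:**
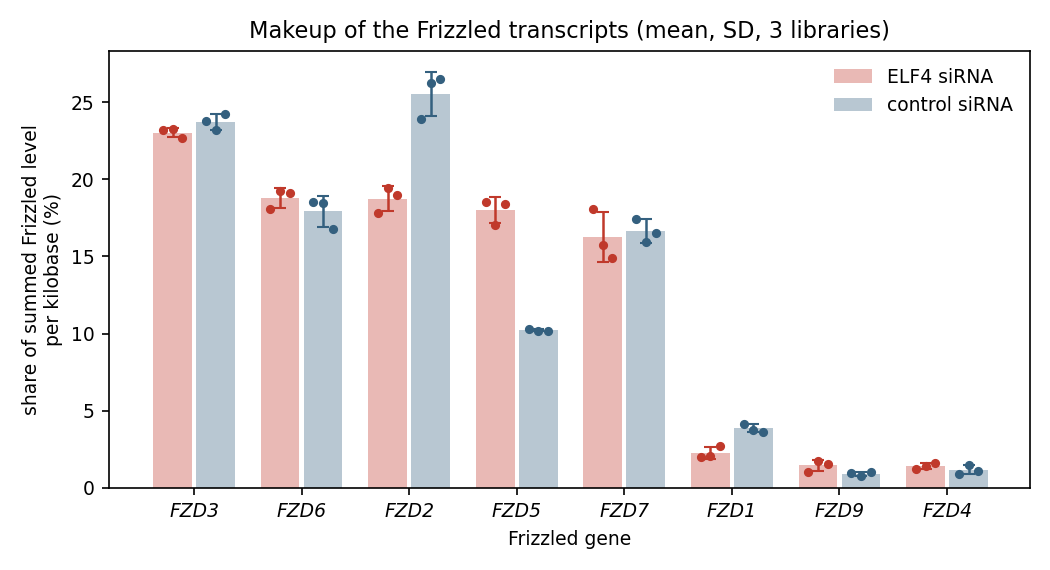
Share of each Frizzled gene in the summed Frizzled level per kilobase of exon, in percent, with ELF4 siRNA bars left of control siRNA bars. Bars are means, error bars SD and points the 3 libraries of each group. FZD5 holds 18.0% after ELF4 siRNA and 10.2% after control siRNA, and FZD2 18.8% after ELF4 siRNA and 25.6% after control siRNA.

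Summed over the 8 genes and given per kilobase, Frizzled transcripts had 535 ± 16.0 after ELF4 siRNA and 612 ± 27.7 after control siRNA (SD, n = 3 each). These sums are descriptions and were not tested. FZD5 made up 18.0 ± 0.829% of the sum after ELF4 siRNA and 10.2 ± 0.0648% after control siRNA. FZD1, FZD2 and FZD7 together made up 37.3 ± 0.645% after ELF4 siRNA and 46.0 ± 0.589% after control siRNA. FZD3 with FZD6 made up 41.8 ± 0.610% after ELF4 siRNA and 41.6 ± 0.650% after control siRNA. The length joins all annotated exons of a gene, 13787 bases for FZD3 and 2112 for FZD2. The shares and the order depend on these lengths, and the transcript forms present in these cells were not determined. In the order of levels per kilobase, FZD2 and FZD3 led the receptors after control siRNA, where their libraries overlapped. After ELF4 siRNA, FZD3 led alone, and FZD6, FZD2, FZD5 and FZD7 followed with overlaps between neighbours.

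The Wnt ligands were low. The 10 tested ligands had 7 to 134 reads per library, and only WNT6 exceeded 30 on the per-kilobase scale in both groups (47.5 ± 10.6 after ELF4 siRNA and 32.4 ± 3.86 after control siRNA). Summed per kilobase over the 12 ligands, the level was 119 ± 11.1 after ELF4 siRNA and 110.5 ± 5.28 after control siRNA. The same sum in normalised read counts, without length, was 377 ± 34.8 after ELF4 siRNA and 397 ± 16.1 after control siRNA, so the direction depends on the scale, and neither sum was tested. Of the 10 tested ligands, 3 fell, 1 rose and 6 did not pass (40% called, against 45.1% of all tested genes).

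WNT3, which signals through beta-catenin and is needed for body axis formation in mice, had 65.0, 58.4 and 63.1 after ELF4 siRNA, against 110.2, 109 and 94.9 after control siRNA. The groups were well apart, and WNT3 fell to 59.5% of control (62.2 ± 3.42 after ELF4 siRNA against 105 ± 8.39 after control siRNA, n = 3 each). This was the ligand call with the smallest adjusted p (log2 fold change -0.74, interval -0.99 to -0.49, adjusted p = 0.000124). WNT9B, its neighbour on chromosome 17 with no other protein-coding gene between them in RefSeq, had 16.5, 14.6 and 12.4 after ELF4 siRNA, against 15.1, 12.6 and 15.6 after control siRNA. Its ranges overlapped almost completely, and the interval of its log2 fold change of 0.01 ran from -0.49 to 0.51. WNT9B acts in kidney tubule formation in mice.

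WNT7B, which in mice guides brain vessel growth and lung development, had 43.0, 14.6 and 34.2 after ELF4 siRNA, against 74.4, 66.3 and 48.9 after control siRNA. No ELF4 siRNA library reached the lowest control library, although the libraries of each group were widely spread. WNT7B fell to 48.4% of control (log2 fold change -1.13, interval -1.77 to -0.49, adjusted p = 0.00658). Without ELF4 siRNA replicate 2, the lowest library, the log2 fold change was -0.69 and the call remained (adjusted p = 0.0134), whereas without the trend it did not pass (adjusted p = 0.0736, with 0.000488 to 0.0736 over all alternatives).

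WNT5B, a ligand of noncanonical signalling, had 13.2, 19.1 and 15.5 after ELF4 siRNA, against 27.3, 26.3 and 23.4 after control siRNA. The groups did not overlap, and WNT5B fell to 62.1% of control (log2 fold change -0.67, interval -1.11 to -0.22, adjusted p = 0.018). With 12 to 33 reads per library the call was narrow. It was lost without ELF4 siRNA replicate 1 (0.0639), without control replicate 1 (0.0685) and with DESeq2 (0.16), in a range of adjusted p from 0.00785 to 0.16 over all alternatives.

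WNT6 and WNT10A are neighbours on chromosome 2, again with no protein-coding gene between them in RefSeq. WNT6, known from epithelial tube formation in the embryo, had 87.0, 60.6 and 95.2 after ELF4 siRNA, against 56.5, 48.0 and 60.9 after control siRNA. Its lowest ELF4 siRNA library lay within the control range. WNT6 rose to 147% of control (log2 fold change 0.53, interval 0.17 to 0.88, adjusted p = 0.0183). The call was lost without ELF4 siRNA replicate 1 (0.0725) or 3 (0.0924), without control replicate 2 (0.0643) and without the trend (0.0713), with 0.00182 to 0.0924 over all alternatives.

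WNT10A, a gene of tooth and skin development, had 37.5, 33.7 and 18.6 after ELF4 siRNA, against 12.2, 16.0 and 24.8 after control siRNA. ELF4 siRNA replicate 3 lay within the control range, and control replicate 3 lay above that library. The log2 fold change was 0.72 (interval 0.11 to 1.34) and missed the threshold (adjusted p = 0.0544). Among the fits that left out a library, it passed without ELF4 siRNA replicate 3 (log2 fold change 1.02, adjusted p = 0.0112) or control replicate 3 (0.98, adjusted p = 0.0136), with 0.0112 to 0.207 over all alternatives. WNT4, a ligand of kidney and reproductive tract development, had 35.3, 24.7 and 7.24 after ELF4 siRNA, against 9.42, 9.14 and 10.6 after control siRNA. In WNT4, ELF4 siRNA replicates 1 and 2 stood above all control libraries while replicate 3 stood below them.

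The coefficient of variation of WNT4 was 63.2% after ELF4 siRNA and 8.12% after control siRNA, and its log2 fold change of 0.88 missed the threshold (interval -0.01 to 1.78, adjusted p = 0.102). Without ELF4 siRNA replicate 3 it was 1.51 (adjusted p = 0.000725) and without replicate 1 it was 0.44 (adjusted p = 0.433), the ends of its range over all alternatives. WNT4 also passed with edgeR (0.0333) and DESeq2 (0.0436). It entered the test with exactly 3 libraries at 10 or more, ELF4 siRNA replicates 1 and 2 and control replicate 3.

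WNT10B, WNT11 and WNT2B were not called. WNT10B, which acts through beta-catenin in fat and bone, had 28.6, 29.2 and 35.2 after ELF4 siRNA, against 19.8, 21.7 and 24.8 after control siRNA. Its groups did not overlap, and it narrowly missed the threshold (log2 fold change 0.47, interval 0.08 to 0.87, adjusted p = 0.0506). It passed with a pseudocount of 5 (0.0476), with a mean of at least 10 as the filter (0.0499) and without the trend (0.0227), with 0.0227 to 0.254 over all alternatives. WNT11, a ligand of convergent extension, had 22.0, 30.3 and 25.9 after ELF4 siRNA, against 19.8, 19.4 and 24.8 after control siRNA, with overlap and a log2 fold change of 0.27 (interval -0.15 to 0.70). WNT2B, a ligand of eye and gut development, had 60.6, 49.4 and 63.1 after ELF4 siRNA, against 64.1, 57.1 and 55.3 after control siRNA. Its groups overlapped, and its log2 fold change of -0.03 had an interval of -0.33 to 0.27.

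WNT8B and WNT16 were near the limit of detection and were not tested. WNT8B, a gene of the developing forebrain, had 1.10, 3.37 and 6.21 after ELF4 siRNA and 5.65, 1.14 and 1.42 after control siRNA. WNT16 had 2.20, 4.49 and 1.03 after ELF4 siRNA and 0.942, 0 and 4.25 after control siRNA. These genes and DKK2 had 0 to 6 reads per library. Around the limit of a mean of 10, the lowest mean inside was 14.5 (WNT9B) and the highest outside was 3.15 (WNT8B).

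**Figure D3:**
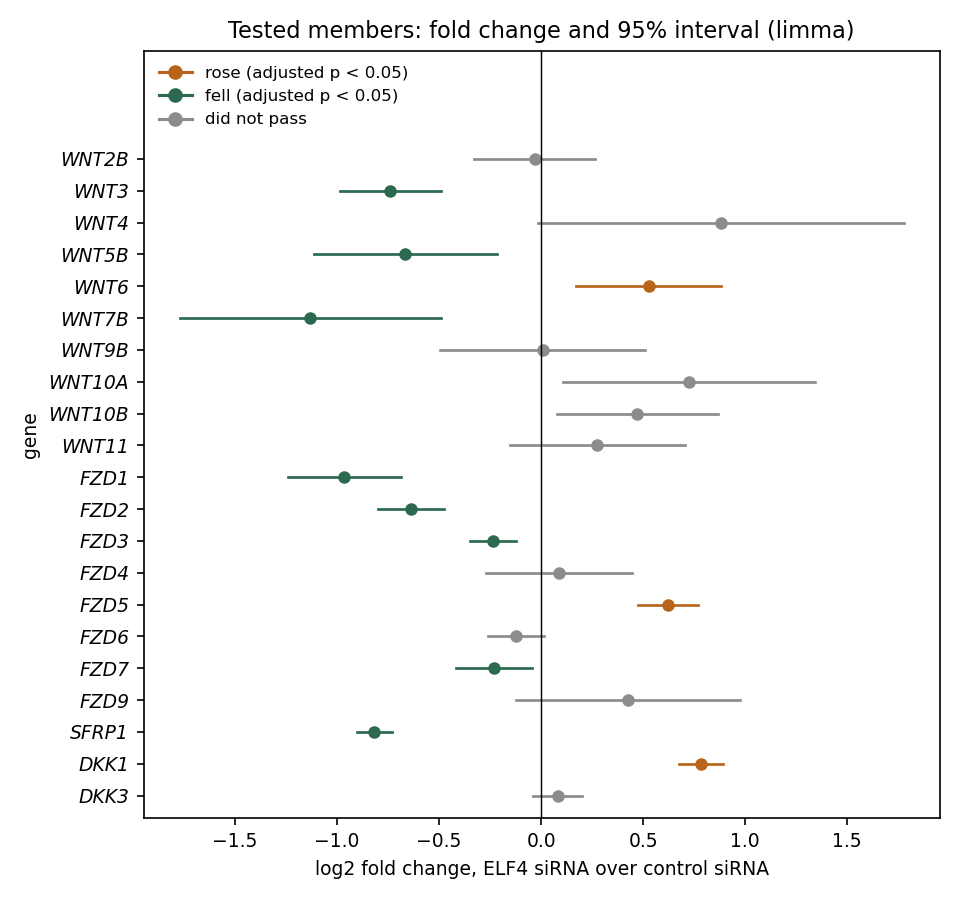
Fold changes on the log2 scale, ELF4 siRNA relative to control siRNA, of the 21 tested genes, with points for the estimate and lines for the 95% interval from limma. The fall of SFRP1 (-0.82) and the rise of DKK1 (0.78) have narrow intervals, and those of WNT4 and WNT7B are wide.

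Several of these rows share sequence with other genes. In GENCODE 29, exons of WNT2B overlap ST7L, those of FZD4 overlap PRSS23, and exons of DKK1, FZD6, WNT11 and WNT4 overlap an antisense or unnamed RNA gene, each on the opposite strand. Because no strand setting is stated, reads of such partners cannot be told apart, and the levels of these 6 genes are uncertain to that degree. None of the 24 rows had values equal to those of another row.

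Other genes of the pathway were read from a list of 86 genes in 8 roles. Of 78 with a row, 70 were tested, 19 rose, 18 fell and 33 did not pass, so 52.9% were called, against 45.1% of all tested genes. The median log2 fold change was -0.03, and 15.7% had an absolute value of at least 0.5, against 17.1% of all tested genes. The named genes are up to 3 per role with the smallest adjusted p.

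Of 6 tested genes of ligand secretion and release, 1 rose and 1 fell (33.3% called, against the same 45.1%). GPC3, a cell surface glypican that binds Wnts, had 46.3, 38.2 and 37.3 after ELF4 siRNA, against 6.60, 9.14 and 4.25 after control siRNA. All ELF4 siRNA libraries were several times higher, a log2 fold change of 2.48 (interval 1.93 to 3.04, adjusted p = 3.47e-06). GPC3 entered the test only through the ELF4 siRNA libraries, since every control value was under 10. SULF2, a heparan sulfatase that releases bound Wnts, fell slightly (-0.17, adjusted p = 0.0269), a call lost without ELF4 siRNA replicate 1 or 3 or control replicate 1 (0.0537 to 0.117), with quantile normalisation (0.151) and without the trend (0.134), with 0.00452 to 0.151 over all alternatives. The SULF2 log2 fold change was -0.10 without ELF4 siRNA replicate 3 and -0.10 with quantile normalisation. PORCN, which attaches the lipid to Wnts, had a log2 fold change of -0.22 and did not pass (adjusted p = 0.0777).

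Of 9 tested coreceptors and other receptors, 2 fell and 1 rose (33.3% called, against 45.1%). RYK, a receptor of the kinase family that guides axons, fell to 72.6% of control (1155 ± 44.9 after ELF4 siRNA against 1589.8 ± 17.3 after control siRNA, log2 fold change -0.46, adjusted p = 2.77e-06). KREMEN2, a partner through which DKK1 removes LRP6 from the surface, fell to 60.9% of control (log2 fold change -0.72, adjusted p = 5.3e-06). Its values were 220.3, 214 and 188 after ELF4 siRNA, against 344, 348 and 331 after control siRNA. KREMEN1, singled out after its value was seen, did not pass (log2 fold change -0.17, adjusted p = 0.0995). RECK, a coreceptor for WNT7 ligands, had a log2 fold change of 0.17 (adjusted p = 0.0468), a call lost when ELF4 siRNA replicate 1, 2 or 3 or control replicate 1 or 2 was left out (0.0626 to 0.144), with no filter (0.059), without the trend (0.0804) and with DESeq2 (0.109), with 0.0145 to 0.144 over all alternatives.

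Of 4 tested genes of the R-spondin axis, which raises receptor levels at the surface, 2 fell and 2 did not pass (50% called, against 45.1%). ZNRF3, a ubiquitin ligase that removes Frizzled receptors and is a target of the pathway, fell to 81.2% of control (626 ± 35.3 after ELF4 siRNA against 770.3 ± 19.5 after control siRNA, log2 fold change -0.30, adjusted p = 0.00073). LGR4, an R-spondin receptor, had a log2 fold change of -0.22 (adjusted p = 0.0355), lost without ELF4 siRNA replicate 2 or 3 or control replicate 1 or 3 (0.0728 to 0.147), without the trend (0.0605) and with DESeq2 (0.118), with 0.00904 to 0.147 over all alternatives. RSPO1, the ligand, had a log2 fold change of 0.11 (adjusted p = 0.0812), which passed with quantile normalisation (0.0061) and without ELF4 siRNA replicate 3 (0.0229), with 0.0061 to 0.281 over all alternatives.

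Of 3 other antagonists tested, 1 rose (33.3% called, against 45.1%). FRZB, also called SFRP3, is an SFRP family member whose symbol the rule does not match. Unlike SFRP1 it rose, to 151% of control (74.5 ± 0.412 after ELF4 siRNA against 49.3 ± 5.99 after control siRNA, log2 fold change 0.59, adjusted p = 0.0021). SOSTDC1, an inhibitor of Wnt and BMP signals, had a log2 fold change of 0.26 and did not pass (adjusted p = 0.0713), except without control replicate 1 (0.0249), with 0.0249 to 0.265 over all alternatives. APCDD1, a membrane inhibitor, had a log2 fold change of 0.05 (adjusted p = 0.892).

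Among 17 genes of Dishevelled, beta-catenin and its destruction complex, 10 rose and 7 did not pass (58.8% called, against 45.1% of all tested genes), and the median change was 0.17 on the log2 scale. All log2 fold changes of this group lay between -0.09 and 0.38. CSNK1D (0.38, adjusted p = 7.22e-06), CSNK1A1 (0.30, adjusted p = 1.84e-05) and GSK3A (0.28, adjusted p = 0.000274) rose most clearly. They encode kinases, of which CSNK1A1 and GSK3A mark beta-catenin for destruction and CSNK1D acts with Dishevelled. CTNNB1, which encodes beta-catenin and was singled out after its value was seen, rose to 113% of control (log2 fold change 0.18, adjusted p = 0.00115).

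Among 13 nuclear factors and cofactors, 1 rose, 7 fell and 5 missed the threshold (61.5% called, against 45.1% of all tested genes), and the median was -0.19 (log2). LEF1, a TCF family factor that is both an effector and a target of beta-catenin, had 358, 388 and 385 after ELF4 siRNA, against 843, 753 and 755 after control siRNA. The groups were far apart, and LEF1 fell to 48.1% of control (log2 fold change -1.05, interval -1.19 to -0.91, adjusted p = 2.61e-08). TCF7 (-0.42, adjusted p = 6.91e-05) and the beta-catenin cofactor gene BCL9L (-0.48, adjusted p = 2.21e-05) fell as well.

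The feedback and target genes numbered 8 tested, 1 of which rose and 3 fell (50% called, against 45.1%). BAMBI, which modulates TGF-beta and Wnt signals, fell to 69.6% of control (-0.52, adjusted p = 3.11e-06). CCND1, the G1 cyclin, fell to 85.3% (-0.23, adjusted p = 0.000414), and MSX1, a homeobox factor, to 62.9% (-0.66, adjusted p = 0.000931). AXIN2, a widely used readout of beta-catenin signalling that was singled out after its value was seen, had 15.4, 19.1 and 14.5 after ELF4 siRNA, against 16.0, 18.3 and 22.0 after control siRNA. These low values overlapped, and the log2 fold change of -0.19 did not pass (interval -0.66 to 0.29, adjusted p = 0.53).

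In planar polarity and noncanonical signalling, with 10 genes tested, 4 rose and 3 fell (70% called, against 45.1% of all tested genes). VANGL2, the core membrane protein of planar polarity, had 651, 707 and 689 after ELF4 siRNA, against 1467, 1329 and 1440.2 after control siRNA. It fell to 48.3% of control with no overlap between the groups (log2 fold change -1.05, interval -1.17 to -0.93, adjusted p = 7.79e-09). PRICKLE1, its cytoplasmic partner, fell to 67.1% (-0.57, adjusted p = 9.32e-07), while CELSR3, a cadherin of axon guidance, rose to 132% (0.40, adjusted p = 1.27e-05).

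**Figure D4:**
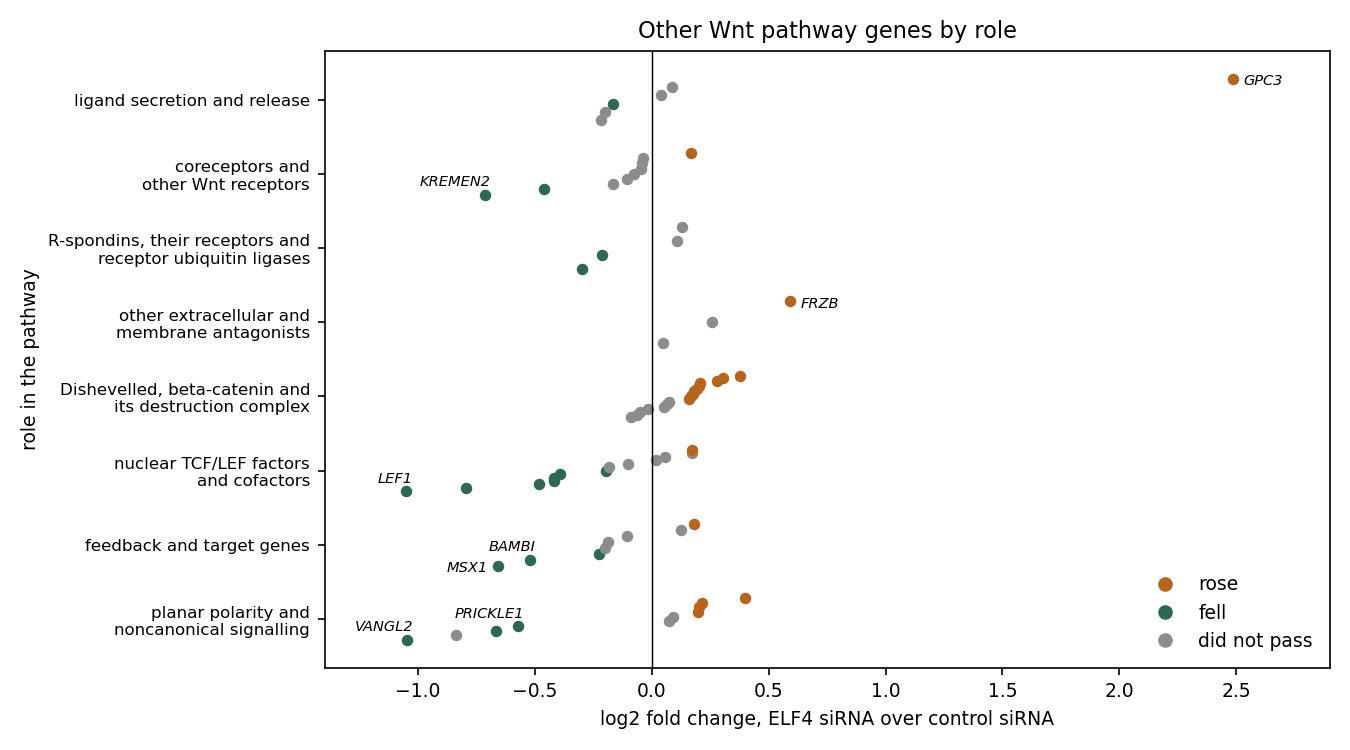
Fold changes on the log2 scale, ELF4 siRNA relative to control siRNA, of the 70 other tested pathway genes, each a point, in rows by role and coloured by whether it rose, fell or did not pass. Named genes with an absolute value of at least 0.5 carry a label. The destruction complex row lies between -0.09 and 0.38, and LEF1 and VANGL2 lie at -1.05.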

How the data were processed

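RNA-seq of BE-(2)-C cells was read from 1 table of 6 libraries in 2 groups, grouped by the labels. The deposited signal is the authors' normalised read count per gene. TopHat, featureCounts, DESeq2 and hg19 are named in the submitters' processing notes. Their versions and roles, the annotation and any strand setting are not stated there. All deposited values, divided by what 1 read is worth, were whole within 0.001 (100% of values), so reads were recovered for all 6 libraries. Rows joining several names numbered 2148.

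ELF4 siRNA was compared with control siRNA by limma with trend on log2(value + 1), a scale that understates changes of low genes. A row entered the test when 3 or more libraries reached 10, with Benjamini-Hochberg adjustment over 20339 rows and a threshold of 0.05. Since separate cultures are not stated, p-values reflect library-to-library spread that may be technical. Libraries of a group differed by more than sampling noise (chi-square per degree of freedom 2.07 to 5.84). Exon lengths and overlaps came from GENCODE 29, on another build, so only RefSeq promoter windows carry coordinates. Each length joins all annotated exons of a gene, whichever of its transcripts are present. Members, lists and the naming rule (every member, ELF4, and up to 3 genes per role) were chosen with earlier results of these data known. Alternatives were pseudocounts, filters, scalings, no trend, edgeR and DESeq2 on recovered reads, a replicate block and leaving out each library. A run of the fit on simulated data, with far fewer changed genes than were called here and 1 dispersion for all genes, served only to check the code. It does not show how reliable these calls are. One marker is not reported here. The software was limma 3.58.1, DESeq2 1.42.0 and edgeR 4.0.16 in R 4.3.3, with Python 3.11.15.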

Additional observations from a re-analysis of the deposited data

How the results depend on the processing

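For the 21 tested family members, 320 of 345 recomputed values stayed on the same side of the threshold. A further 15 no longer passed and 10 newly passed, and 0 called values changed sign, whereas FZD4, WNT2B and WNT9B, which were not called, did under some alternatives. The calls of SFRP1, DKK1, FZD1, FZD2, FZD3, FZD5 and WNT3 held under every alternative that could be run, and a mean of at least 100 left no value for WNT3. The members that rose numbered 3, and 5 with the replicate block, which added WNT4 (limma adjusted p = 0.043, with 0.000725 to 0.433 over all alternatives) and WNT10A (0.0435, with 0.0112 to 0.207). The members that fell numbered 8, and 5 when the test was limited to a mean of 100 or more, by construction of that limit. That limit also left no value for WNT6, which rose. DESeq2 lost FZD7 and WNT5B and gained WNT4. Without the trend FZD7, WNT6 and WNT7B were lost and WNT10B was gained. Quantile normalisation lost FZD7, edgeR gained WNT4, and a pseudocount of 5 or a mean of at least 10 gained WNT10B. Leaving out 1 library gave 2 to 4 that rose and 6 to 8 that fell. The replicate numbers are not known to pair libraries, since correlations of same-numbered deviations were 0.029 to 0.0748, against -0.0572 to 0.0152 for other pairs. Each library correlated best with its own number, but these correlations are small. Deviations were taken within each group of 3 libraries, which ties the correlations to each other, so they cannot decide whether libraries are paired. The cause of the changed calls was not tested. The tested ligands rest on 7 to 134 reads per library.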

Other observations

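Among 8 pathway genes below the limit for testing, 4 had values that did not overlap between the groups. The share was 53.6% of all tested genes, which lie above that limit, and it was not computed for rows below it. The 4 genes were picked after their values were seen and carry no test. LGR6, an R-spondin receptor, had 13.2, 12.3 and 8.28 normalised reads after ELF4 siRNA, against 1.88, 0 and 1.42 after control siRNA. DACT1, a Dishevelled-binding protein gene, had 9.91, 4.49 and 9.31 after ELF4 siRNA, against 1.88, 0 and 1.42 after control siRNA. RSPO4, a secreted R-spondin, had 2.20, 1.12 and 1.03 after ELF4 siRNA, against 9.42, 10.3 and 6.38 after control siRNA. TRABD2B, which encodes a membrane protease that cleaves Wnts, had 4.41, 2.24 and 4.14 after ELF4 siRNA, against 6.60, 5.71 and 7.08 after control siRNA. Each rests on at most 12 reads per library.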
